A study of Mus musculus with 16 samples.

Results

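E proteins are transcription factors of the basic helix-loop-helix class, and Id proteins are their inhibitors. This account follows 6 mouse genes of that pair of families, the E protein genes Tcf3, Tcf4 and Tcf12 and the inhibitor genes Id1, Id2 and Id3, which were taken by symbol from the 41214 genes counted in each library. All 6 were found once in the count tables, and all 6 were among the 17470 genes with enough counts to be tested. RNA was sequenced from T cell acute lymphoblastic leukaemia (T-ALL) of 16 C57Bl6 mice, 1 library per mouse, in 8 groups of 2 mice. The pair of values of a group is given as replicate 1 and then replicate 2, numbers that only name the mice.

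Leukaemia was induced by ICN, an activated form of Notch, in 12 mice and arose without ICN in 4 mice. Of the ICN mice, 6 were p53 ko and 6 were p53 wt, and each of these sets held 2 mice with a deltaPOZ form of Miz1 and the suffix Lck in their titles, 2 with deltaPOZ and the suffix Vav, and 2 with Miz1 wt. The 4 mice without ICN were all p53 ko, and 2 of them carried deltaPOZ with the suffix Vav and 2 carried Miz1 wt. Zbtb17 encodes Miz1, a transcription factor with zinc fingers, and the deltaPOZ form lacks the domain through which Miz1 multimerises. Lck and Vav name promoters often used to drive expression in T cells and in blood cells, but the labels do not explain the suffixes. The sources used here do not give the organ sampled or the age and sex of the mice. Because p53 wt leukaemia without ICN was not among the groups, ICN was compared only in p53 ko mice.

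E proteins bind DNA at E boxes as dimers, joined through a pair of helices and holding the DNA with a basic region. Id proteins have the helices and no basic region, so a dimer of an E protein with an Id protein does not bind DNA. In thymocytes, Tcf3 and Tcf12 products restrain growth and keep cells at the checkpoints of T cell receptor rearrangement, signals through the receptor induce Id3, and Id2 is best known for innate lymphoid and natural killer cells. Tal1, Lyl1, Lmo1 and Lmo2, which are activated in many human T-ALLs, encode proteins that join E proteins in complexes with other target genes. Tcf4 here is the E protein gene also called E2-2, and not the Wnt effector gene Tcf7l2.

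The stretch that Id and E proteins share and the stretch that Id proteins lack can both be read in the coding sequence. The first set shows the codons of the second helix in 5 genes, from the transcripts of GENCODE mouse release M21 on GRCm38, 5′ to 3′ on the coding strand, with the codons of a shared isoleucine and leucine in capitals. Tcf4 is described without sequence. Tcf3 has 2 alternative exons for this region, and both are shown because counts per gene do not tell them apart.
Id1, chr2:152736590-152736634, plus strand, exon 1: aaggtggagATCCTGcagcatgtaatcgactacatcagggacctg
Id2, chr12:25095786-25095830, minus strand, exon 1: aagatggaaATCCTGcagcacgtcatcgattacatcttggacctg
Id3, chr4:136144074-136144118, plus strand, exon 1: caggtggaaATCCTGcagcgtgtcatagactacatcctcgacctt
Tcf12, chr9:71856321-71856365, minus strand, exon 18: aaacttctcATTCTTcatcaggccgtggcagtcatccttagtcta
Tcf3, first alternative, chr10:80412843-80412887, minus strand, exon 18: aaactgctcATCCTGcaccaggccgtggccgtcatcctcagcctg
Tcf3, second alternative, chr10:80410414-80410458, minus strand, exon 18: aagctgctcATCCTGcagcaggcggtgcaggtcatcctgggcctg
The 3 Id stretches were identical to each other at 36 to 38 of 45 bases (80% to 84.4%). An Id stretch and an E protein stretch were identical at 44.4% to 66.7% of bases, and Tcf12 matched the first alternative of Tcf3 at 37 of 45 bases (82.2%), as did the alternatives of Tcf3 each other.

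The second set shows the codons of the basic region upstream of the helices, with the codons of 2 asparagines and of the arginine, glutamate and arginine that contact an E box in capitals.
Tcf12, chr9:71856435-71856467, minus strand: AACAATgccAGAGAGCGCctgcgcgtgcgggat
Tcf3, first alternative, chr10:80412957-80412989, minus strand: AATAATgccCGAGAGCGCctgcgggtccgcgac
Tcf3, second alternative, chr10:80410528-80410560, minus strand: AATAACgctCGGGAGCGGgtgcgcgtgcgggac
The pattern behind this stretch was found in 7 of 11 coding transcripts of Tcf12 and in 11 of 12 of Tcf3, and in 0 of 6 coding transcripts of Id1, Id2 and Id3 counted jointly. Of the Tcf3 transcripts, 4 had the first alternative and 7 the second.

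Before the values, the libraries were examined. They held 36463524 to 68523196 counts in genes. ICN Miz1 wt p53 ko replicate 1 had the fewest. Of all that was counted for it, 63.74% were alignments that were not unique (median of all libraries 48.2%) and 20.57% lay in genes. The next highest shares not unique were 56.21% in deltaPOZ-Vav replicate 1 without ICN and 56.19% in ICN deltaPOZ-Vav p53 wt replicate 2. These libraries also hold extreme values of Id genes given below, and the part of library quality in those values was not tested. Trp53, which encodes p53, lay between 7.32 and 30.6 CPM (counts scaled to a library of 1e+06 counts, with TMM size factors) in the 10 p53 ko libraries and between 70.2 and 113.5 CPM in the 6 p53 wt libraries, with no overlap. Zbtb17 lay between 38.0 and 87.5 CPM with deltaPOZ and between 42.9 and 137.8 CPM with Miz1 wt, and whole-gene counts are a weak check of a deletion within the gene. The first principal component (47.3% of the variance) parted the 12 ICN libraries (-71.7 to -33) from the 4 without ICN (138.6 to 169.9). Summed over 10 T lineage markers such as Cd3e and Thy1, levels were 2543.2 to 4411.6 CPM with ICN and 2887.3 to 5402.5 CPM without ICN, so T lineage markers were detected in every library. Of the summed markers of other cells, those of erythroid cells and neutrophils lay apart between the ICN libraries, of both p53 genotypes, and those without ICN. The sums for B cells, natural killer cells, dendritic cells, macrophages, endothelium and stroma overlapped, although single markers in these lists differed with ICN, as given below. The 6 erythroid markers summed to 1582.4 to 6845.3 CPM with ICN and 5.05 to 10 CPM without, and the 7 neutrophil markers to 49.6 to 8963 CPM with ICN and 0.33 to 1.44 CPM without. The leukaemias are bulk samples, so a gene that is lower because fewer cells express it and a gene with less RNA per cell cannot be told apart.

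Among E proteins, Tcf3 and Tcf12 supplied nearly all transcripts, and among Id genes Id3 supplied most. To compare genes with each other, CPM was divided by the length of all exons of the gene in kilobases. On that scale the median levels over 16 libraries were 57.2 CPM per kb for Tcf3, 42.1 for Tcf12, 41.6 for Id3, 8.33 for Id2, 7.52 for Id1 and 0.55 for Tcf4. Tcf3 made up 46.8% to 78.9% of the E protein sum (median 55.2%), Tcf12 20.5% to 52.6% (43.7%) and Tcf4 0.063% to 1.3% (0.605%). Id3 made up 15.2% to 87.4% of the Id sum (median 67.9%), Id2 4.96% to 49.4% (15.7%) and Id1 3.48% to 66.8% (15.2%).

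The order of neighbours was not fixed. Tcf3 lay above Tcf12 in 13 of 16 libraries, Tcf12 above Id3 in 8 and Id2 above Id1 in 7, whereas Tcf4 was lowest in all libraries but one, where Id1 was lower still. The order of Tcf3 and Tcf12 depended on the length used: with the longest transcript in place of all exons, Tcf12 was the highest E protein gene in 12 libraries and Tcf3 in 4. Id3 was the highest Id gene in 13 libraries. The exceptions were Id1 in 1 ICN deltaPOZ-Vav p53 wt mouse and in 1 Miz1 wt mouse without ICN, and Id2 in 1 ICN Miz1 wt p53 ko mouse.

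**Figure D1:**
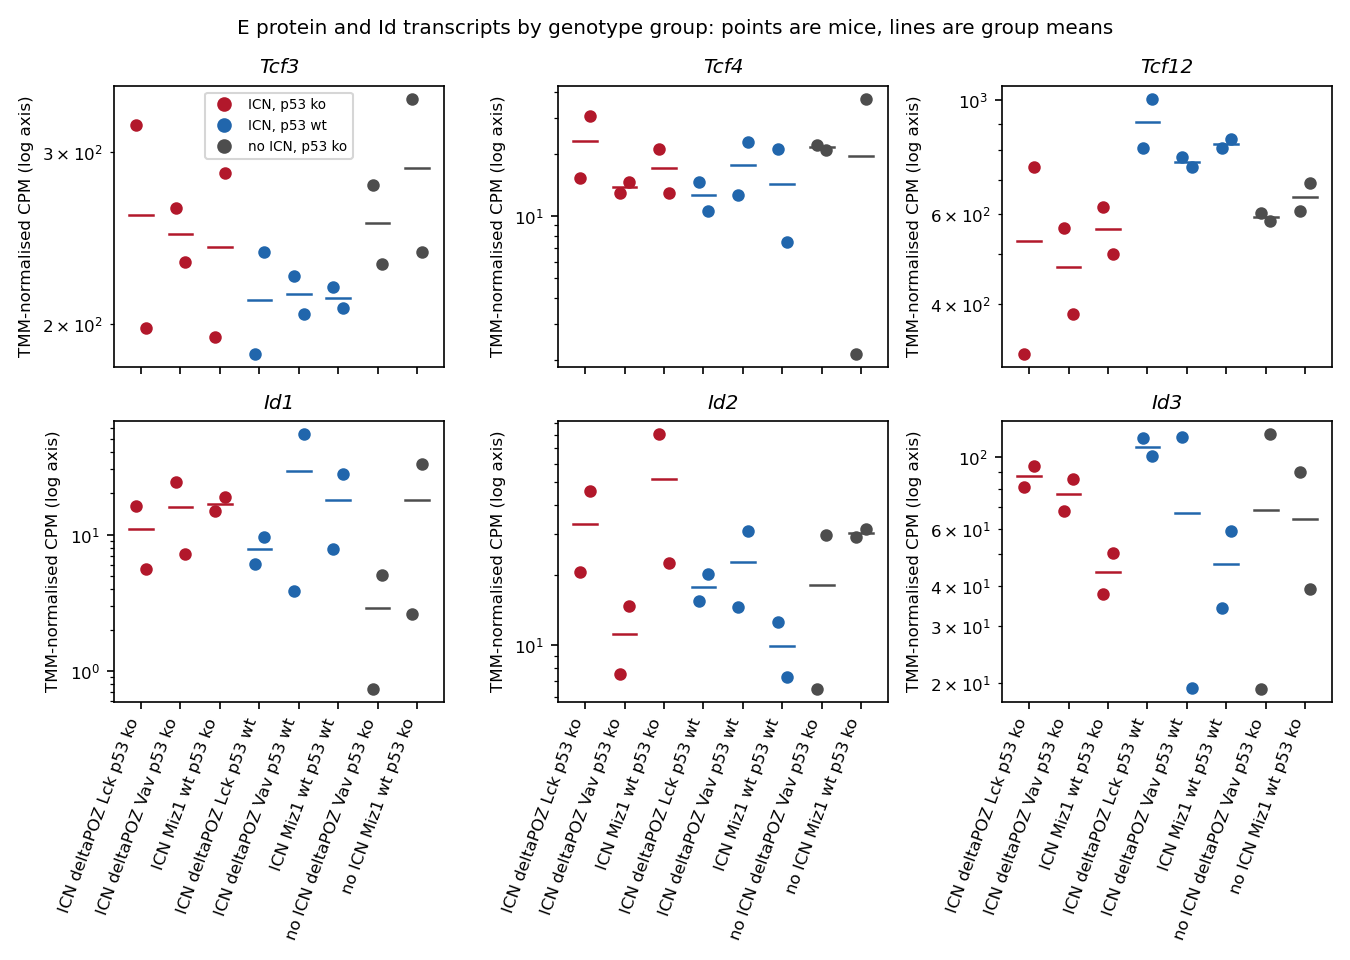
Levels of the 6 genes (TMM-normalised CPM, log axes that differ between panels) in the 8 genotype groups, with 1 point per mouse and a line at the mean of each group of 2. Tcf3 spans 186.5 to 339.7 CPM over all mice, while Id1 spans 0.732 to 54.7 CPM and differs widely within pairs of the same genotype.

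Tcf3 (ENSMUSG00000020167, chr10:80409514-80433647, minus strand) encodes the E2A proteins, the founding E proteins of lymphocytes. In ICN leukaemias of p53 ko mice it measured 319.4 and 198.3 CPM with deltaPOZ-Lck, 262.7 and 231.5 CPM with deltaPOZ-Vav and 194.1 and 285.2 CPM with Miz1 wt. In ICN leukaemias of p53 wt mice it measured 186.5 and 237.3 CPM with deltaPOZ-Lck, 224.2 and 205.0 CPM with deltaPOZ-Vav and 218.2 and 207.6 CPM with Miz1 wt. Without ICN it measured 277.4 and 230.6 CPM with deltaPOZ-Vav and 339.7 and 237.1 CPM with Miz1 wt. The genotypes overlapped in every comparison, and the highest library was 1.82 times the lowest. Mice of the same group differed by an SD of 0.28 on the log2 scale, and 24.4% of tested genes had a smaller one (median of all tested genes 0.46).

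Tcf12 (ENSMUSG00000032228, chr9:71842688-72111871, minus strand) encodes HEB, the main partner of E2A in thymocytes. In ICN leukaemias of p53 ko mice it measured 319.2 and 740.7 CPM with deltaPOZ-Lck, 563.7 and 383.2 CPM with deltaPOZ-Vav and 620.2 and 500.9 CPM with Miz1 wt. In ICN leukaemias of p53 wt mice it measured 806.0 and 1007.6 CPM with deltaPOZ-Lck, 776.1 and 739.7 CPM with deltaPOZ-Vav and 807.5 and 839.4 CPM with Miz1 wt. Without ICN it measured 602.5 and 581.5 CPM with deltaPOZ-Vav and 608.5 and 688.2 CPM with Miz1 wt. All 5 p53 wt mice other than the lowest lay above every p53 ko mouse, and 1 p53 ko mouse (deltaPOZ-Lck, 740.7 CPM) lay just above that lowest p53 wt mouse. The within-group SD was 0.36 (log2), with 36.7% of tested genes below it.

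Tcf4 (ENSMUSG00000053477, chr18:69343356-69689079, plus strand) is the E protein gene of plasmacytoid dendritic cells and is also used in B cells. With ICN on p53 ko, levels were 15.4 and 30.8 CPM with deltaPOZ-Lck, 13.0 and 14.6 CPM with deltaPOZ-Vav and 21.1 and 13.0 CPM with Miz1 wt. With ICN on p53 wt, levels were 14.7 and 10.6 CPM with deltaPOZ-Lck, 12.6 and 22.8 CPM with deltaPOZ-Vav and 21.3 and 7.49 CPM with Miz1 wt. Without ICN it measured 22.2 and 21 CPM with deltaPOZ-Vav and 2.13 and 37.2 CPM with Miz1 wt. The lowest and the highest mouse belonged to the same group, Miz1 wt without ICN, and lay 17.5-fold apart. The summed dendritic cell markers, such as Siglech and Flt3, lay between 18.9 and 144.6 CPM over all libraries, and their part in the Tcf4 level was not tested.

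Id1 (ENSMUSG00000042745, chr2:152736251-152737410, plus strand) is a target of BMP signalling in many cell types. With ICN on p53 ko, levels were 16.2 and 5.61 CPM with deltaPOZ-Lck, 24.4 and 7.24 CPM with deltaPOZ-Vav and 14.8 and 18.9 CPM with Miz1 wt. With ICN on p53 wt, levels were 6.05 and 9.57 CPM with deltaPOZ-Lck, 3.86 and 54.7 CPM with deltaPOZ-Vav and 7.88 and 28.0 CPM with Miz1 wt. Without ICN it measured 0.732 and 5.07 CPM with deltaPOZ-Vav and 2.60 and 33.1 CPM with Miz1 wt. Id1 varied most of the 6 genes, by 74.7-fold over all mice, and 96.6% of tested genes had a smaller within-group SD than its 1.67 (log2).

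Id2 (ENSMUSG00000020644, chr12:25093799-25097140, minus strand) is needed for innate lymphoid and natural killer cells. In p53 ko mice with ICN it stood at 20.5 and 45.8 CPM with deltaPOZ-Lck, 7.51 and 14.7 CPM with deltaPOZ-Vav and 80.7 and 22.6 CPM with Miz1 wt. In p53 wt mice with ICN it stood at 15.5 and 20.1 CPM with deltaPOZ-Lck, 14.6 and 30.8 CPM with deltaPOZ-Vav and 12.6 and 7.29 CPM with Miz1 wt. Without ICN it measured 6.45 and 29.7 CPM with deltaPOZ-Vav and 29.2 and 31.5 CPM with Miz1 wt. All 4 deltaPOZ libraries lay above both Miz1 wt libraries in ICN p53 wt mice, while in ICN p53 ko mice 1 Miz1 wt library was the highest of the series and the groups overlapped. Over the 16 libraries the summed markers of natural killer and group 1 innate lymphoid cells lay between 90.4 and 533.3 CPM, and their part in the Id2 level was not tested.

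Id3 (ENSMUSG00000007872, chr4:136143497-136145755, plus strand) is induced by receptor signals in thymocytes. In p53 ko mice with ICN it stood at 80.9 and 93.8 CPM with deltaPOZ-Lck, 68.0 and 85.5 CPM with deltaPOZ-Vav and 37.8 and 50.6 CPM with Miz1 wt. In p53 wt mice with ICN it stood at 114.9 and 101.2 CPM with deltaPOZ-Lck, 115.3 and 19.3 CPM with deltaPOZ-Vav and 34.0 and 59.1 CPM with Miz1 wt. Without ICN it measured 19.1 and 118.2 CPM with deltaPOZ-Vav and 90.1 and 39.0 CPM with Miz1 wt. All 4 deltaPOZ libraries of ICN p53 ko mice lay above both of Miz1 wt. In ICN p53 wt mice 3 of 4 did, and the remaining deltaPOZ-Vav mouse had the lowest Id3 of that background and the highest Id1 of the series. All 3 Id genes had their lowest level in the same mouse, deltaPOZ-Vav replicate 1 without ICN.

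The ratio of Id to E protein transcripts was below 1 in every mouse. It was computed in each library as the sum of Id1, Id2 and Id3 over the sum of Tcf3, Tcf4 and Tcf12, on CPM per kb. On that scale the E protein sum varied less, between 82.5 and 124 CPM per kb (1.5-fold), while the Id sum ran from 13.9 to 82.6 CPM per kb (5.93-fold). The sizes of the sums and of the ratio depend on the gene lengths used, as does the order of Tcf3 and Tcf12. Over all 16 mice the ratio lay between 0.129 and 0.866 with a median of 0.641.

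Among ICN p53 ko mice the ratio was 0.674 and 0.776 with deltaPOZ-Lck, 0.61 and 0.727 with deltaPOZ-Vav and 0.754 and 0.521 with Miz1 wt. Among ICN p53 wt mice it was 0.768 and 0.589 with deltaPOZ-Lck, 0.695 and 0.711 with deltaPOZ-Vav and 0.29 and 0.569 with Miz1 wt. Without ICN it was 0.129 and 0.866 with deltaPOZ-Vav and 0.523 and 0.605 with Miz1 wt. The lowest and the highest ratio of the series thus came from the same genotype. In ICN p53 wt mice the 4 deltaPOZ ratios were all above the 2 Miz1 wt ratios, and the means differed by 0.76 on the log2 scale. The pooled within-group SD of all groups was 0.75, raised by the deltaPOZ-Vav pair without ICN (SD 1.95). In ICN p53 wt mice the SDs were 0.69 with Miz1 wt, 0.27 with deltaPOZ-Lck and 0.02 with deltaPOZ-Vav. The difference of 0.76 was 0.27 without Miz1 wt replicate 1 and 1.25 without Miz1 wt replicate 2. In ICN p53 ko mice the difference was 0.15, and without ICN it was -0.75 with both mice and 0.62 without deltaPOZ-Vav replicate 1. Computed as a difference of mean log2 levels, which gives the scarce genes equal weight, it was 0.33 in ICN p53 wt, -0.28 in ICN p53 ko and -1.55 without ICN. The ratio is a score over chosen genes and was given no test.

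**Figure D2:**
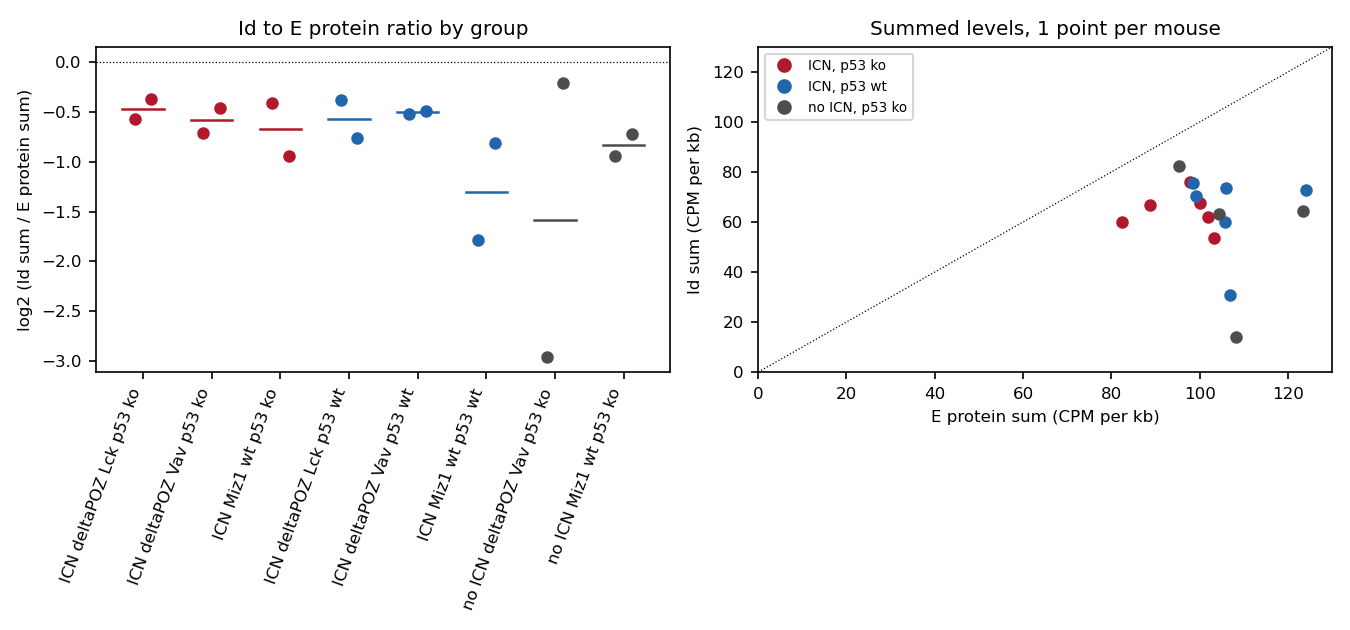
Left, log2 of the ratio of summed Id to summed E protein transcripts by group, with 1 point per mouse, a line at each group mean and a dotted line at equal sums; right, the 2 sums against each other (CPM per kb of exon), with a dotted line of equality. All 16 mice lie below equality, and the E protein sum varies by 1.5-fold while the Id sum varies by 5.93-fold.

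The title of the series names the loss of the Miz1 POZ domain as its subject, and none of the 6 genes passed the main test for it. Tests used edgeR's quasi-likelihood fit over all 16 libraries, with p-values adjusted over the 17470 genes by the Benjamini-Hochberg method and a threshold of 0.05. Averaged over the 3 backgrounds (10 deltaPOZ against 6 Miz1 wt mice), 0 of 6 passed, where 0.0172% of all genes passed, and 0 of 6 had groups without overlap, beside 0.0515% of all genes. At an unadjusted p under 0.05 the counts were 0 of 6 genes and 859 of 17470 (4.92%), and by DESeq2 0 of 6 and 127 of 17470 (0.727%). Log2 fold changes were -0.03 for Tcf3 (SE 0.15), -0.09 for Tcf12 (SE 0.17) and 0.09 for Tcf4 (SE 0.48). They were 0.62 for Id3 (SE 0.44), -0.39 for Id2 (SE 0.39) and -1.07 for Id1 (SE 0.68), each with an adjusted p of 1 by edgeR. The 95% interval of Tcf3 (-0.36 to 0.29) and that of Tcf12 (-0.48 to 0.29) leave out a 2-fold change of either sign, whereas that of Id1 reached from -2.58 to 0.43. In edgeR without the filter on low counts, Id1 (adjusted p = 0.00235) and Id3 (adjusted p = 0.03) passed. That fit gave each gene the spread of the trend and not its own (infinite prior degrees of freedom). Its passes, here and below, therefore do not weigh how far mice of a group differed in that gene. The log2 ratio of Id to E protein transcripts differed by 0.05 in this average, and by -0.5 as a difference of mean log2 levels.

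Within the ICN p53 ko background (4 deltaPOZ against 2 Miz1 wt mice), 0 of 6 genes passed in edgeR, beside 0.00572% of all genes. At an unadjusted p under 0.05 the count was 1 of 6, beside 3.78% of all genes, and by DESeq2 it was 0 of 6, beside 120 of 17470 (0.687%). The gene was Id2, with a log2 fold change of -1.43 (SE 0.62, 95% interval -2.79 to -0.07, edgeR adjusted p = 1), which passed only where no filter on low counts was used (adjusted p = 0.00387). It rests on 1 Miz1 wt library: without Miz1 wt replicate 1 (80.7 CPM) the log2 fold change was -0.24. That library had the largest share of alignments that were not unique (63.74%). Id3, whose groups did not overlap, had a log2 fold change of 0.89 (SE 0.73, interval -0.72 to 2.49, edgeR adjusted p = 1). Non-overlap of these groups was found for 1 of 6 genes and for 8.9% of all genes.

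Within the ICN p53 wt background (4 against 2 mice), 0 of 6 genes passed in edgeR, beside 0% of all genes. At an unadjusted p under 0.05 the counts were 0 of 6 and 327 of 17470 (1.87%), and by DESeq2 0 of 6 and 15 of 17470 (0.0859%). Id2, whose groups did not overlap, had a log2 fold change of 1.01 (SE 0.67, interval -0.47 to 2.49, edgeR adjusted p = 1), and 11.4% of all genes had groups without overlap. Id3 stood at 0.87 (SE 0.73) with all mice, and at -0.03 without deltaPOZ-Vav replicate 1. Tcf3 (0.00, SE 0.24) and Tcf12 (0.01, SE 0.29) had log2 fold changes near 0.

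In the leukaemias that arose without ICN (2 with deltaPOZ-Vav, 2 with Miz1 wt), 0 of 6 genes passed in edgeR, beside 0% of all genes. With an unadjusted p under 0.05 there were 0 of 6 and 1341 of 17470 (7.68%), and by DESeq2 0 of 6 and 233 of 17470 (1.33%). Id1 had the largest log2 fold change, -2.62 (SE 1.39, interval -5.67 to 0.44, edgeR adjusted p = 0.734), and it was 0.14 without Miz1 wt replicate 2. It passed in edgeR without the filter on low counts (adjusted p = 5.85e-05), a fit that does not use the wide spread of Id1 itself (within-group SD 1.67 on the log2 scale). Tcf12 alone had groups without overlap, at -0.13 (SE 0.33), a pattern that 26% of all genes had with 2 mice a side.

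The log2 fold changes of Id2 with deltaPOZ had opposite signs in the 2 ICN backgrounds. The difference, ICN p53 ko minus ICN p53 wt, was -2.44 on the log2 scale (SE 0.93, interval -4.48 to -0.41, edgeR adjusted p = 1), and it was -1.25 without the high Miz1 wt p53 ko replicate 1. It passed in edgeR without the filter on low counts (adjusted p = 0.000582). For this difference 0 of 6 genes passed beside 0% of all genes, 1 of 6 and 454 of 17470 (2.6%) had an unadjusted p under 0.05, and 0 of 6 and 29 of 17470 (0.166%) passed in DESeq2. The other 5 genes had differences between -0.17 (Tcf12) and 0.07 (Tcf3), with SEs of 0.34 to 1.6.

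**Figure D3:**
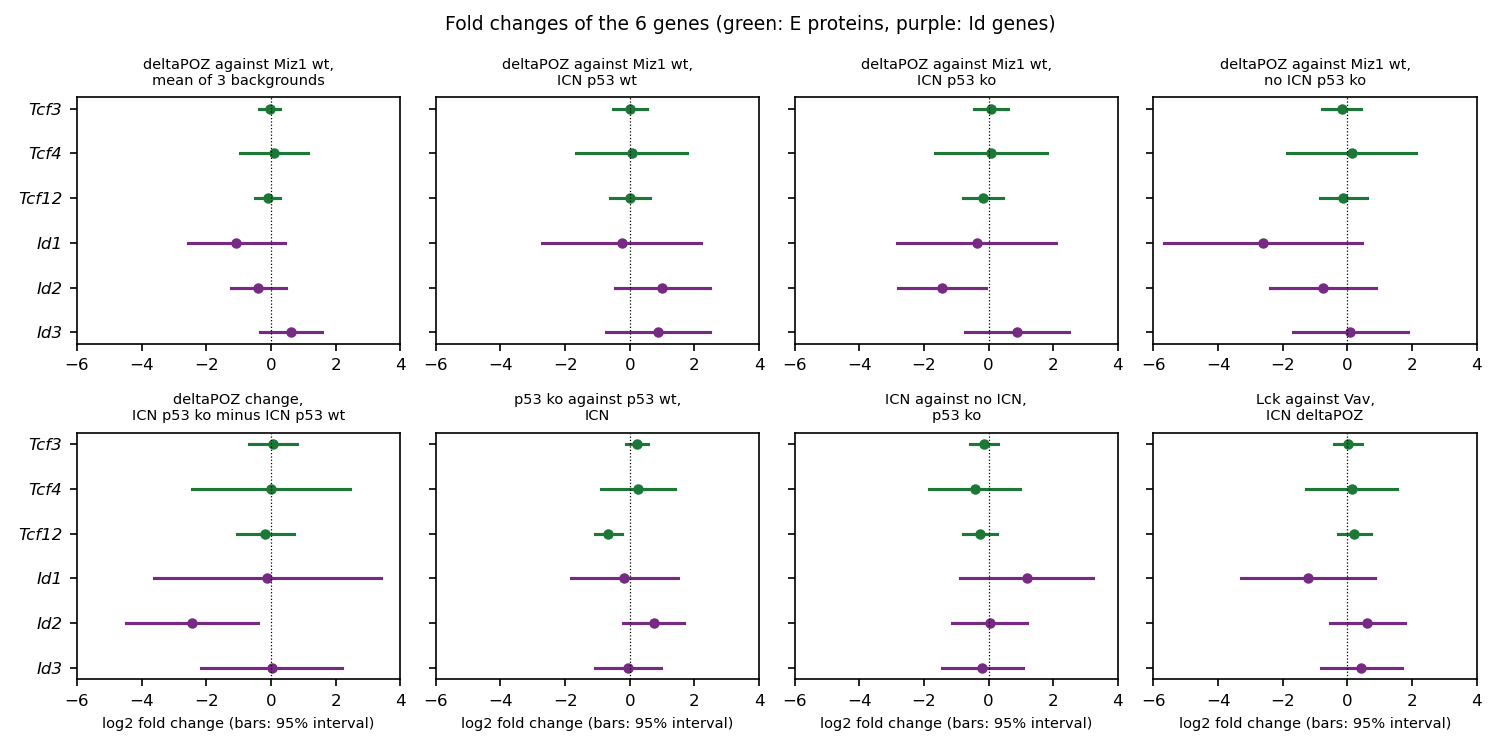
Log2 fold changes of the 6 genes in the 8 comparisons (points, with bars for the 95% interval of edgeR's quasi-likelihood fit; E proteins in green, Id genes in purple). The bars of Tcf3 and Tcf12 are short and those of Id1 long, and the bars that leave out 0 belong to Id2 with deltaPOZ in ICN p53 ko mice, to its difference between backgrounds and to Tcf12 with p53 ko.

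Between p53 genotypes, the gene with the lowest p of the 6 was Tcf12. Among ICN leukaemias Tcf12 measured 319.2 to 740.7 CPM in 6 p53 ko mice (median 532.3, mean 521.3 ± 155.0 SD) and 739.7 to 1007.6 CPM in 6 p53 wt mice (median 806.7, mean 829.4 ± 93.6 SD). The ranges met at a single p53 ko mouse. The log2 fold change was -0.67 (SE 0.19, interval -1.09 to -0.25), with an edgeR p of 0.00497 and an adjusted p of 0.145, so it did not pass. It did pass in DESeq2 (-0.66, adjusted p = 0.0344) and in edgeR without the filter on low counts (adjusted p = 0.00254). Leaving out 1 library at a time kept the edgeR log2 fold change between -0.92 and -0.52, without passing in any of 16 fits. In edgeR 0 of 6 genes passed, beside 0.195% of all genes (0.12% higher and 0.0744% lower), and 0 of 6 had groups without overlap, beside 2.6% of all genes. With an unadjusted p under 0.05 there were 1 of 6 and 2705 of 17470 (15.5%), and in DESeq2 1 of 6 and 1085 of 17470 (6.21%).

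In the same comparison 0 of the 7 macrophage, 0 of the 8 dendritic cell and 0 of the 7 neutrophil markers passed in edgeR, beside 0.195% of all genes. Of the 7 markers of natural killer cells and related innate lymphoid cells, 1 was lower in p53 ko mice (Klrb1c, log2 -2.69, SE 0.45, edgeR adjusted p = 0.0478). Summed macrophage markers were 203.5 to 1455.7 CPM in p53 ko and 114.6 to 250.4 CPM in p53 wt mice, and summed dendritic cell markers were 62.9 to 144.6 CPM in p53 ko and 39.5 to 71.7 CPM in p53 wt mice. Summed neutrophil markers were 49.6 to 8963 CPM (median 2622.8) in p53 ko and 52.3 to 893.8 CPM (median 210.7) in p53 wt mice. All 3 sums overlapped between genotypes. The mouse with the least Tcf12 (deltaPOZ-Lck p53 ko replicate 1) had the highest summed macrophage, dendritic cell, neutrophil and erythroid markers. Without that library the log2 fold change of Tcf12 was -0.52 (edgeR adjusted p = 0.24). Summed T lineage markers were 2697.3 to 4173.6 CPM in p53 ko and 2543.2 to 4411.6 CPM in p53 wt mice. The part of other cells in the Tcf12 level was not tested.

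The other 5 genes overlapped between p53 genotypes. Tcf3 was 248.5 ± 49.7 CPM in p53 ko and 213.1 ± 17.5 CPM in p53 wt mice (SD, n = 6 each), a log2 fold change of 0.22 (SE 0.16, edgeR adjusted p = 0.543). Id2 was 32.0 ± 27.1 CPM in p53 ko and 16.8 ± 8.03 CPM in p53 wt mice, at 0.75 (SE 0.43, edgeR adjusted p = 0.439, and 0.047 without the filter on low counts). Tcf4 (0.25, SE 0.52), Id1 (-0.17, SE 0.76) and Id3 (-0.06, SE 0.47) were nearer to 0. The log2 ratio of Id to E protein transcripts differed by 0.22 between genotypes, where the SDs within the ICN groups were 0.02 to 0.69.

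With ICN none of the 6 genes passed the test, and 6 genes are too few to set that count apart from the share of all genes that passed. Among p53 ko mice with Miz1 wt or deltaPOZ-Vav (4 ICN against 4 without ICN), 0 of 6 genes passed in edgeR, where 24% of all genes passed, 12.9% higher and 11.1% lower. At an unadjusted p under 0.05 the counts were 0 of 6 and 6534 of 17470 (37.4%), and in DESeq2 0 of 6 and 5332 of 17470 (30.5%). The log2 fold changes were -0.15 for Tcf3 (SE 0.20), -0.27 for Tcf12 (SE 0.24), -0.43 for Tcf4 (SE 0.64), 1.18 for Id1 (SE 0.94), 0.03 for Id2 (SE 0.53) and -0.19 for Id3 (SE 0.57). The intervals of Tcf3 (-0.58 to 0.28) and Tcf12 (-0.78 to 0.25) leave out a 2-fold change of either sign, and those of Tcf4 and the Id genes do not. None of the 6 genes had groups without overlap (0 of 6, beside 21.7% of all genes). Id1 passed in edgeR without the filter on low counts (adjusted p = 0.0064). The log2 ratio of Id to E protein transcripts was -0.63 with ICN and -1.21 without, a difference of 0.58 that was -0.11 without no-ICN deltaPOZ-Vav replicate 1 and 1.26 without its replicate 2.

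Of 16 other helix-loop-helix and Lim partner genes, 13 were tested, and 5 were higher and 0 lower with ICN (median log2 fold change 0.80, against -0.02 over all genes), beside 12.9% higher and 11.1% lower among all genes. Tal1, a helix-loop-helix partner of E proteins, measured 214.6, 295.9, 130.7 and 276.0 CPM with ICN, against 0.025, 0.0144, 0.137 and 0.0521 CPM without ICN, where it had 11 counts in all 4 libraries together. The log2 fold change was 12.34 (SE 0.64, edgeR adjusted p = 2.89e-06). Lmo2, a Lim adaptor of the same complex, measured 54.2 to 111.4 CPM with ICN and 1.03 to 2.75 CPM without (log2 5.64, SE 0.47, edgeR adjusted p = 2.28e-05). Lyl1, a close relative of Tal1, measured 20.5 to 43.6 CPM with ICN and 0.366 to 1.05 CPM without (log2 5.62, SE 0.46, edgeR adjusted p = 1.87e-05). Exons of Lyl1 overlap Nfix on the opposite strand. Hey1, a Notch target, also passed (log2 2.50, SE 0.82, edgeR adjusted p = 0.0459), but its levels overlapped, at 4.05 to 19.0 CPM with ICN and 0.187 to 24.8 CPM without. Its log2 fold change ranged from 2.04 to 4.28 when 1 library was left out.

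In all 12 ICN mice Tal1 lay between 113.4 and 297.5 CPM (median 195.9 CPM), Lyl1 between 20.5 and 58.6 CPM (34.0 CPM) and Lmo2 between 44.2 and 186.2 CPM (94.4 CPM). Lmo1, another Lim adaptor, was higher at a low level (0.0198 to 1.11 CPM with ICN and 0 to 0.0694 CPM without; log2 3.40, SE 1.05, edgeR adjusted p = 0.0376). That call was lost in 11 of 16 fits without 1 library, most of all without ICN Miz1 wt replicate 1 (log2 1.38, adjusted p = 0.488). Ldb1, which bridges such complexes, did not pass (124.3 to 183.8 CPM with ICN and 100.2 to 338.2 CPM without; log2 -0.39, SE 0.24, edgeR adjusted p = 0.255), and its exons overlap Pprc1 on the opposite strand. Id4, the remaining gene of the Id family, lay at 0.0626 to 0.182 CPM with ICN and 0.0229 to 1.84 CPM without, and did not pass (log2 -1.39, SE 1.21, edgeR adjusted p = 0.439).

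Tal1, Lyl1, Lmo2 and Gfi1b are also genes of erythroid and early blood cells, and markers of erythroid cells were higher in the same mice. All 6 erythroid markers, such as Klf1, and all 7 neutrophil markers, such as S100a8 and Mpo, passed as higher with ICN, with the summed levels given above. None of the erythroid markers was at 0 in any group, and of the neutrophil markers Camp was at 0 in the Miz1 wt mice without ICN. Their part in the levels of Tal1, Lyl1, Lmo2 and Gfi1b was not tested, and in these bulk libraries ICN and the share of such cells cannot be told apart. Of other markers, 3 of 8 for dendritic cells, 2 of 7 for macrophages and 3 of 7 for natural killer cells passed as higher with ICN. As lower, 1 of 7 for natural killer cells and 2 of 4 tested for stroma passed. Among all genes 12.9% passed as higher and 11.1% as lower.

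**Figure D4:**
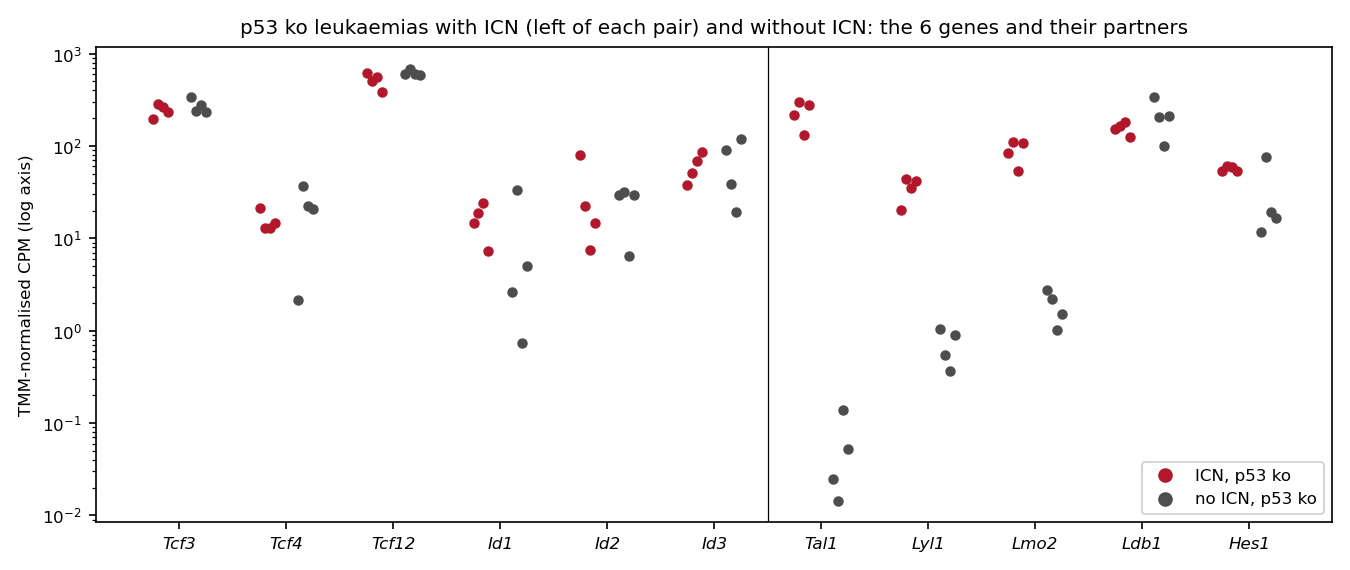
Levels in p53 ko leukaemias with ICN (red, left of each pair) and without ICN (grey), as TMM-normalised CPM on a log axis with 1 point per mouse, 4 mice a side. The 6 genes left of the line overlap between sides, whereas Tal1, Lyl1 and Lmo2 are separated and Ldb1 and Hes1 overlap, with Tal1 at 130.7 CPM or more with ICN and at most 0.137 CPM without.

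Among 22 tested genes reported to need or bind E proteins, 3 were higher and 3 lower with ICN (median log2 -0.44). These shares are near those of all genes, 12.9% higher and 11.1% lower. Gfi1b, a repressor of blood cell genes, measured 13.1 to 49.4 CPM with ICN and 0.0287 to 0.425 CPM without (log2 7.30, SE 0.72, edgeR adjusted p = 7.53e-05). Bcl11b, a T cell commitment factor, was lower, at 189.7 to 274.6 CPM with ICN and 466.5 to 957.1 CPM without (log2 -1.53, SE 0.26, edgeR adjusted p = 0.00201). Cd79a and Ebf1, which belong to B cells, were higher at low levels (log2 3.42, SE 0.72, and 3.08, SE 0.99). Their levels were 0.198 to 11.1 CPM for Cd79a and 0.0198 to 7.37 CPM for Ebf1 with ICN, against 0.144 to 0.399 CPM for Cd79a and 0.158 to 0.573 CPM for Ebf1 without ICN (edgeR adjusted p = 0.00654 and 0.0429). The call of Ebf1 was lost in 11 of 16 fits, and without ICN Miz1 wt replicate 1 its log2 fold change was 0.31. Of the 8 B cell markers, which include Cd79a, 6 also passed as higher, and their sum was 5.1 to 130.7 CPM in ICN mice and 7.63 to 22.8 CPM without ICN. Ptcra, the textbook E protein target at the pre-receptor checkpoint, was 77.1 to 322.5 CPM with ICN and 19.7 to 223.2 CPM without, and did not pass (log2 1.42, SE 0.74, edgeR adjusted p = 0.189).

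Of 19 tested early growth response and BMP or TGF-beta genes, which act upstream of Id expression, 2 were higher and 4 lower with ICN (median log2 -0.26), beside 12.9% higher and 11.1% lower among all genes. Tgfbr1, a TGF-beta receptor, measured 33.3 to 81.9 CPM with ICN and 114.9 to 260.0 CPM without (log2 -2.02, SE 0.31, edgeR adjusted p = 0.00135). Bmp7, a BMP ligand, measured 3.47 to 18.7 CPM with ICN and 25.7 to 149.6 CPM without (log2 -2.60, SE 0.52, edgeR adjusted p = 0.00496). Smad6, an inhibitor of BMP signals, was lower at a low level (0.0364 to 0.159 CPM with ICN and 0.137 to 1.25 CPM without; log2 -2.68, edgeR adjusted p = 0.0323). Eng, a co-receptor whose exons overlap Fpgs, was higher (3.26 to 7.34 CPM with ICN and 0.0458 to 1.89 CPM without; log2 2.57, edgeR adjusted p = 0.0431). Leaving out 1 library ended the Smad6 call in 6 of 16 fits, with an adjusted p of up to 0.175, and the Eng call in 11, with an adjusted p of up to 0.121.

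Of 12 genes for turnover of these proteins and for their cofactors, 4 were higher and 4 lower with ICN (median log2 0.07), beside 12.9% higher and 11.1% lower among all genes. Fzr1, an activator of a ubiquitin ligase that acts on Id proteins, was higher (76.1 to 137.4 CPM with ICN and 52.3 to 65.1 CPM without; log2 0.90, SE 0.19, edgeR adjusted p = 0.00597), and its exons overlap Mfsd12. Asb2, part of a ligase reported to act on E proteins, was higher (3.72 to 12.7 CPM with ICN and 0.16 to 2.03 CPM without; log2 2.49, edgeR adjusted p = 0.0212). Skp2, of the same list, was lower, at 41.4 to 68.0 CPM with ICN and 93.8 to 126.0 CPM without (log2 -0.85, SE 0.17, edgeR adjusted p = 0.00512). Its log2 fold change stayed between -1.10 and -0.69 when 1 library was left out. The Asb2 call was lost without ICN Miz1 wt replicate 2 (adjusted p = 0.0766), ICN deltaPOZ-Vav replicate 1 (0.0504) or no-ICN Miz1 wt replicate 2 (0.0728). Of the ETO family of corepressors, Cbfa2t3, whose exons overlap Gm10612, was lower (5.79 to 8.73 CPM with ICN and 6.16 to 41.5 CPM without; log2 -1.76, edgeR adjusted p = 0.0204). Its call was lost in 4 of 16 fits, and without no-ICN deltaPOZ-Vav replicate 2 its log2 fold change was -0.78 (adjusted p = 0.0922). Runx1t1, of the same family, was higher at a trace level (0.0397 to 0.209 CPM with ICN and 0.0144 to 0.0347 CPM without; log2 2.35, edgeR adjusted p = 0.0428), but lost the call in 13 of 16 fits and in DESeq2. Over the 4 lists 25 genes passed with ICN, and 10 of them passed in every fit without 1 library.

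In the Miz1 comparisons, between p53 genotypes and between suffixes, 0 genes of these 4 lists passed in edgeR, beside 0% to 0.195% of all genes. For deltaPOZ averaged over 3 backgrounds, the 2 genes of lowest p in each list are given. Among partners they were Hey1, a Notch target (log2 2.21, SE 0.62, edgeR adjusted p = 0.581), and Bhlhe40 (log2 -1.01, SE 0.34, adjusted p = 0.861). Among targets they were Cd79a (log2 1.62, SE 0.52) and Cd4 (log2 -0.96, SE 0.31), both with an edgeR adjusted p of 0.817. Upstream of Id they were Egr3 (log2 1.39, SE 0.42, edgeR adjusted p = 0.695) and Bmpr1a (log2 1.14, SE 0.39, adjusted p = 0.861). Among cofactors they were Crebbp (log2 -0.34, SE 0.15) and Kat2b (log2 -0.18, SE 0.11), both with an edgeR adjusted p of 1.

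Between p53 ko and p53 wt, the 2 genes of lowest p in the partner list were Hey1 (log2 -2.92, SE 0.64, edgeR adjusted p = 0.0828) and Lmo1 (log2 2.83, SE 0.80, adjusted p = 0.14). In the target list the gene of lowest p was Rag2, a recombinase gene whose exons overlap B230118H07Rik (log2 2.07, SE 0.83, edgeR adjusted p = 0.261). Upstream of Id they were Smad1, which carries BMP signals to the nucleus (log2 -1.62, SE 0.35, edgeR adjusted p = 0.0816), and Egr2 (log2 -1.86, SE 0.43, adjusted p = 0.0931). Among cofactors they were Usp1, a deubiquitinase of Id proteins (log2 0.41, SE 0.17, edgeR adjusted p = 0.281), and Runx1t1 (log2 -1.08, SE 0.53, adjusted p = 0.358).

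None of the 6 genes passed the main test between the suffixes of the deltaPOZ mice. Between 4 Lck and 4 Vav mice with ICN, 0 of 6 genes passed in edgeR, beside 0% of all genes, and 0 of 6 had groups without overlap, beside 2.89% of all genes. With an unadjusted p under 0.05 there were 0 of 6 and 551 of 17470 (3.15%), and in DESeq2 0 of 6 and 15 of 17470 (0.0859%). Log2 fold changes lay between -1.22 (Id1, SE 0.94) and 0.61 (Id2, SE 0.53), and that of Tcf3 was 0.02 (SE 0.20, interval -0.41 to 0.46). The log2 ratio of Id to E protein transcripts differed by 0.03.

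Across the 12 ICN mice, the levels of the members were not all positively correlated within either family. The 3 Id genes had Pearson correlations of log2 CPM of -0.70 (Id1 with Id3), -0.26 (Id2 with Id3) and -0.04 (Id1 with Id2). The first pair had a Spearman correlation of -0.71, and its Pearson value was -0.39 without the 2 mice of most extreme Id1. Tcf3 and Tcf12 had -0.67 (Spearman -0.44), and -0.27 without the 2 most extreme mice of Tcf3. Tcf4 and Id2 had 0.69 (Spearman 0.57, and 0.48 without 2 mice), the highest of the 15 pairs. These values describe 12 libraries that share genotype groups, and no test was made.

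The genes most like each member were sought among 8880 protein-coding genes with a mean log2 CPM of at least 3, by Pearson correlation over the same 12 mice. Tcf12 had the closest companions, Cul5 (0.95), Pum2 (0.95) and Sacm1l (0.94), and Tcf3 had Cdk2ap1 (0.94), Sgta (0.91) and Rcc1 (0.90). Tcf4 had Plekho1 (0.90), Cmah (0.87) and Il7r (0.86). Id2 had Syt13 (0.91), Txnip (0.89) and Gsr (0.89), Id1 had Prss57 (0.91), Oat (0.87) and Psma2 (0.85), and Id3 had Susd1 (0.89), Slco3a1 (0.81) and Tbc1d31 (0.80). Against summed markers of other cells over the same mice, Tcf3 had -0.87 with endothelial markers (Spearman -0.81, and -0.71 without 2 mice), and Tcf12 had 0.68 with the same markers (Spearman 0.42, and 0.43 without 2 mice). Tcf12 also had -0.65 with dendritic cell markers (Spearman -0.57, and -0.63 without 2 mice) and -0.63 with macrophage markers (Spearman -0.78, and -0.37 without 2 mice). The values given for markers are the largest in size among all pairs of a member and a marker list. The endothelial markers did not all move together: with ICN, 4 of 7 tested were higher and 1 lower, so their sum is a weak measure of endothelial cells. All of these points share libraries and groups, and no test was made of them.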

How the data were processed

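Gene expression was measured by paired-end RNA-seq of T-ALL from 16 mice, with TruSeq Stranded mRNA libraries, per the labels' protocols. The deposited values are raw counts of reads per gene from HTSeq after TopHat2 2.0.10, on mm10 (GRCm38), per the submitters' processing notes, which also name SAMtools and DESeq. The strand setting of the counter is not given in the sources used here, so genes with overlapping exons cannot be told apart with certainty. No counted gene overlaps the exons of the 6 members. The 5 closing rows of each table name no gene and were left out. Of all that was counted in a library, they held alignments that were not unique (45.81% to 63.74%), in no feature (14.22% to 21.5%) or ambiguous (0.138% to 0.331%). Between 36463524 and 68523196 counts per library fell in genes, which sets the counting precision. Symbols, positions and exon lengths came from GENCODE mouse release M21 (GRCm38), which named 40254 of 41214 identifiers.

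Groups came from the labels. By the labels each library is 1 mouse, and the spread behind each p-value is that between mice. Replicate numbers follow accession order and pair nothing. Counts were fitted with edgeR 4.0.16 (R 4.3.3; filterByExpr, TMM, quasi-likelihood, 8 group means, 16 libraries, 8 residual degrees of freedom), with Benjamini-Hochberg adjustment over 17470 genes and a threshold of 0.05. CPM used TMM-scaled library sizes. The ratio of Id to E protein transcripts used CPM per kb of exon. The Miz1 effect was tested in each of 3 backgrounds, as their mean and as the difference between the ICN backgrounds, and p53, ICN and the Lck and Vav suffixes were tested within the groups that allow it. These comparisons share libraries, so none is independent of the others. DESeq2 1.42.0, DESeq2's size factors in edgeR, no filter on low counts, a fit of each comparison's own libraries and leaving out each library were tried as alternatives. In simulated counts the mean Miz1 comparison recovered 81% of genes changed 4-fold and 100% of those changed 16-fold (16997 genes; 4 of 185 calls false). The ICN comparison recovered 62% and 99% (17058 genes, 14 of 175 calls false). Changed genes were drawn only from those with a mean above 1 CPM. Id1, Tcf4 and Id3 varied more within groups than most genes, as 96.6%, 88.0% and 82.7% of tested genes had a smaller SD. The recovered shares therefore need not hold for these members.

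The members, the gene lists and the markers were chosen with earlier results of these data known, and no list was tested as a set. From each list the text names up to 4 genes with the largest log2 fold change among those passing; where fewer than 2 passed, the 2 lowest p-values are given, here only for the averaged Miz1 and the p53 comparisons. In the p53 comparison 1 gene of the target list is not reported here. Ptcra, Ldb1 and Id4 were named for their role and after their values were seen. Skp2 and, in the ICN comparison, Hey1 were also added after their values were seen. Sequences were read from the GENCODE transcripts by their reading frames.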

Additional observations from a re-analysis of the deposited data

How the results depend on the processing

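With DESeq2's size factors in edgeR, the fold changes of the members and the counts of genes kept their direction and their side of the threshold; the ratio is taken within a library and was not recomputed. No paired analysis was possible because the labels carry no replicate numbers, and the numbers used here follow accession order. Without the filter on low counts (30095 genes), the genes passing were 211 for deltaPOZ in ICN p53 wt, 464 in ICN p53 ko, 746 without ICN, 502 in the mean, 378 for the difference, 1588 for p53 and 277 for the suffix. The members passing then numbered 1 (Id2) in ICN p53 ko, 1 (Id1) without ICN, 2 (Id1, Id3) in the mean, 1 (Id2) in the difference, 2 (Id2, Tcf12) for p53 and 1 (Id1) for ICN. That fit gave each gene the spread of the trend, with infinite prior degrees of freedom against a median of 3.34 with the filter. In DESeq2 the genes passing were 15, 120, 233, 127, 29, 1085 and 15 in the same order, and 1 member passed (Tcf12, p53). Fits of each comparison's own libraries gave 2 genes for ICN p53 ko, 149 for p53 and 2360 for ICN; fewer samples enter them, and 12 of the 25 listed genes that passed with ICN did not pass there. As a difference of mean log2 levels, the difference of the ratio with deltaPOZ was 0.33 in ICN p53 wt, -0.28 in ICN p53 ko (against 0.15), -1.55 without ICN and -0.5 in the mean (against 0.05), so that its direction turned in ICN p53 ko and in the mean. It was then 0.37 for p53, 0.76 for ICN and 0.12 for the suffix. From Id2 and Id3 over Tcf3 and Tcf12 it was -0.37 without ICN, 0.24 in the mean and 0.45 for the suffix, and with no division by length 0.57 for p53. The cause of these shifts was not tested.

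Leaving out 1 library, genes passing ranged over 0 to 1 (ICN p53 wt), 0 to 3 (ICN p53 ko), 0 to 108 (no ICN; 108 without deltaPOZ-Vav replicate 2), 0 to 20 (mean; 20 without Miz1 wt replicate 2 of no ICN), 0 to 0 (difference), 2 to 132 (p53; 2 without ICN deltaPOZ-Lck p53 wt replicate 1 and 132 without ICN Miz1 wt p53 ko replicate 2), 2524 to 4643 (ICN; 2524 without ICN deltaPOZ-Vav p53 ko replicate 2) and 0 to 1 (suffix), and members passing over 0 to 0. The ratio difference ranged over 0.27 to 1.25, -0.12 to 0.41, -2.13 to 0.62, -0.41 to 0.51, 0.06 to 0.38 (p53), -0.11 to 1.26 (ICN) and -0.07 to 0.12 (suffix). Log2 fold changes of members that changed sign in these fits ranged as follows. With deltaPOZ in ICN p53 wt these were Id1 -1.71 to 0.93, Id3 -0.03 to 1.32, Tcf12 -0.09 to 0.09, Tcf3 -0.1 to 0.08 and Tcf4 -0.52 to 0.98. In ICN p53 ko they were Tcf12 -0.52 to 0.10, Tcf3 -0.17 to 0.42 and Tcf4 -0.22 to 0.46. Without ICN they were Id1 -4.59 to 0.14, Id3 -1.74 to 0.85, Tcf3 -0.44 to 0.11 and Tcf4 -0.78 to 3.32. In the mean they were Id2 -0.87 to 0.01, Tcf3 -0.12 to 0.07 and Tcf4 -0.22 to 1.15. In the difference they were Id1 -1.27 to 1.35, Id3 -0.41 to 0.93, Tcf12 -0.53 to 0.10, Tcf3 -0.18 to 0.43 and Tcf4 -0.89 to 0.61. For p53 they were Id1 -0.52 to 0.81 and Id3 -0.33 to 0.54. For ICN they were Id2 -0.56 to 0.78, Id3 -0.62 to 0.74 and Tcf4 -0.92 to 1.13. For the suffix they were Id1 -1.72 to 0.24, Tcf12 -0.15 to 0.43, Tcf3 -0.18 to 0.18 and Tcf4 -0.16 to 0.37.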
